A study of Homo sapiens with 12 samples.

Results

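The mRNAs of 10 translation factors and associated proteins were followed through an RNA immunoprecipitation of ADAR3 in U373-MG, a cell line from a human glioblastoma. The members were chosen by Ensembl gene ID, and their names come from the list that defines the set: EEF1A1, EEF2, EEF1B2, EEF1D, EEF1G, TPT1, NPM1, EIF4B, PABPC1 and NACA. All 10 were among the 31707 gene IDs of the deposited tables, and 9 had reads enough to be described. ADAR3 belongs to the ADAR deaminases, binds double-stranded RNA and has no editing activity that is known. The 3 groups of 4 libraries are immunoprecipitate (IP) made with an antibody to endogenous ADAR3, its control IP made with pre-immune serum, and input RNA that did not go through IP. All cells were unmodified U373-MG, crosslinked with ultraviolet light and sonicated, and 1 cell line stands behind every library. The labels do not say whether replicates were separate cultures, and p-values then reflect only how these libraries spread, which may be technical.

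mRNAs of the TOP class begin with a 5′ terminal oligopyrimidine tract, a cytosine at the cap followed by an unbroken stretch of pyrimidines. Ribosomal proteins and many translation factors are encoded by such mRNAs, and their translation is switched on and off together by mTORC1 signalling, in part through LARP1, which binds the cap and the tract. The proteins encoded here act in elongation (EEF1A1, EEF2 and the EEF1B2, EEF1D and EEF1G subunits of the exchange complex), in initiation (EIF4B, PABPC1) and in chaperoning (NACA, NPM1). TPT1 is the translationally controlled tumour protein.

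The tract is the feature that gives the class its name, so the annotated transcription starts are shown with it. RefSeq starts on build GRCh38.p14 were read for 8 members. Each line gives the 10 bases before the start and the 20 bases from it, 5′ to 3′ on the gene's strand, and capitals mark a run of pyrimidines that begins with C at the first transcribed base.

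EEF1A1, chr6:73521013-73521042, minus strand: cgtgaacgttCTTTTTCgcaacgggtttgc
EEF2, chr19:3985444-3985473, minus strand: cgtcagcgttCTCTTCCgccgtcgtcgccg
EEF1B2, chr2:206159885-206159914, plus strand: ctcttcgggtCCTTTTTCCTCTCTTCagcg
TPT1, chr13:45341164-45341193, minus strand: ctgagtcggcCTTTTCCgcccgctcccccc
NPM1, chr5:171387839-171387868, plus strand: agcctgcgtcCTTTCCCTggtgtgattccg
EIF4B, chr12:53006446-53006475, plus strand: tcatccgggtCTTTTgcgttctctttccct
NACA, chr12:56725280-56725309, minus strand: ctcgctcggtCTTTCTgccgccatcttggt
EEF1G, chr11:62573872-62573901, minus strand: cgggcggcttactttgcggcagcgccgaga

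A C at the first base followed by at least 4 pyrimidines was present at a listed start of 7 of the 8 members. Counted per start and not per gene, it was present at 4.07% of the 35116 starts listed. The members were named as TOP mRNAs, which the tract defines, so this contrast is a description and no test. The match was read on the transcribed strand at the first base only. EEF1G was the exception, with an annotated start that falls on an A. EEF1B2 and NPM1 each had a second listed start without the tract, and which start U373-MG cells use is not known from these files. The run was longest at EEF1B2, with 16 pyrimidines, and shortest at EIF4B, with 5. EEF1A1, EEF2 and TPT1 had 7, NPM1 had 8 and NACA had 6.

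Levels are given as CPM, reads of a gene per 1000000 reads assigned to genes in that library, computed from reads recovered from the deposited normalized counts. Libraries held 23999234 to 30156884 such reads in ADAR3 IP, 1875461 to 4946149 in pre-immune serum IP and 4873428 to 12772412 in input, so the groups of IP libraries differed in depth without overlap. For the 9 measured members the lowest count was 72 reads, for NACA in pre-immune replicate 4. A set of 14 genes, each averaging at least 5 CPM over the IPs and more than 20 times its input level, took 5.26% to 6.18% of reads in ADAR3 IP and 13.3% to 21.7% in pre-immune serum IP, against 0.0099% to 0.01996% in input, which lowers the CPM of every other gene in pre-immune serum IP most. CPM is not corrected for transcript length, so levels are compared between groups and not between genes.

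Together the members made up 0.450% ± 0.0423 of ADAR3 IP reads, 0.416% ± 0.0465 of serum IP reads and 0.803% ± 0.0451 of input reads (SD, n = 4 each). The share in both IPs thus lay well below that in input, and the shares of the IPs overlapped, at 0.423% to 0.513% in ADAR3 IP and 0.369% to 0.475% in pre-immune serum IP. Single members did not follow this sum alike. EEF1B2 was lowest in ADAR3 IP, EEF1D was highest there, and NPM1, NACA and TPT1 were below input in both IPs, which overlapped.

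**Figure D1:**
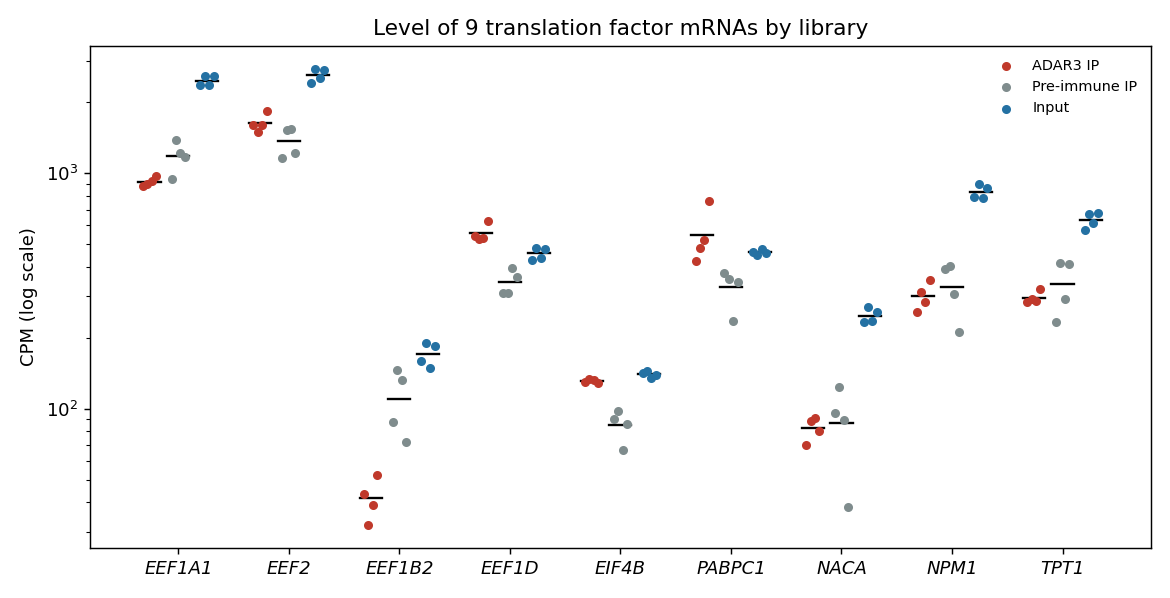
CPM of the 9 measured mRNAs on a log scale, with 1 point per library and a black line at the mean of each group of 4. EEF1B2 points of ADAR3 IP, at 32.1 to 52.2 CPM, lie below all others of that gene, while EEF1D points of ADAR3 IP, at 526 to 627 CPM, lie above all others of that gene.

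Setting antibody IP against serum IP asks which mRNAs were relatively enriched by the ADAR3 antibody. Each IP library was made from all the RNA recovered, so shares of a library are compared and not amounts of RNA. The difference was tested with limma on log2(normalized count + 1) over the 11112 genes whose normalized count averaged 50 or more, which took in 9 of the 10 members. With a Benjamini-Hochberg adjusted p under 0.05, 1 member was higher, EEF1D, and 1 was lower, EEF1B2. Of all genes tested 2.33% were called higher and 1.74% lower. The ADAR3 IP libraries lay entirely above the serum IP libraries for 3 members and entirely below them for 2 on the scale of normalized counts, against 8.8% and 6.68% of all genes tested. No such share was computed for genes as abundant as the members. The authors' deposited table gives EEF1D and EIF4B, 2 members, as higher and EEF1A1 and EEF1B2, also 2, as lower at an adjusted p under 0.05, as are 8.75% and 5.63% of the genes given one there. The 9 members had a median log2 fold change of -0.04, against a median of 0.25 over all genes tested. The median over all genes depended on the method, at 0.03 with edgeR and -0.06 with DESeq2. NACA was the middle member in each, so the median of the members was -0.07 with edgeR and -0.16 with DESeq2. The members thus lay closer to all genes with these methods than in limma. Over only the genes whose normalized count averaged 400 or more, the limma median was 0.09. Fold changes below are from the limma fit.

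Elongation begins with EEF1A1 (ENSG00000156508), the GTPase that brings aminoacyl-tRNA to the ribosome. Its mRNA had 882, 900.0, 927 and 967 CPM in ADAR3 IP, against 944, 1382, 1221 and 1164 CPM in pre-immune serum IP and 2364, 2573, 2356 and 2582 CPM in input. Both IPs lay below input without overlap, and ADAR3 IP was the lower of them except that its replicate 4 exceeded pre-immune replicate 1. On the deposited scale its normalized count was 8171 ± 325 in ADAR3 IP, against 11091 ± 1796 in serum IP (SD, n = 4 each), and the IPs did not overlap. The log2 fold change of -0.43 ± 0.13 (SE) did not pass the threshold in limma (adjusted p = 0.0998). In the authors' deposited table it is -0.44 with an adjusted p of 0.0105, past that threshold.

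EEF2 (ENSG00000167658), the GTPase that moves the ribosome along the mRNA after each peptide bond, had 1596, 1495, 1592 and 1840 CPM in ADAR3 IP. It had 1163, 1525, 1541 and 1222 CPM in pre-immune serum IP and 2418, 2772, 2533 and 2742 CPM in input. The IPs overlapped and both lay below input. The log2 fold change of ADAR3 IP over pre-immune serum IP was 0.19 ± 0.13 (SE; limma adjusted p = 0.464).

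EEF1B2 (ENSG00000114942) encodes the smaller of the guanine nucleotide exchange subunits that recharge EEF1A1 with GTP. Its mRNA stood at 43.5, 32.1, 38.8 and 52.2 CPM in ADAR3 IP, against 87.9, 145, 133 and 72.0 CPM in pre-immune serum IP and 160, 189, 149 and 185 CPM in input. The 3 groups were separated from each other in every library, with ADAR3 IP lowest and input highest. EEF1B2 fell by 1.44 ± 0.27 on the log2 scale (SE), so pre-immune serum IP held 2.71 times the normalized count of ADAR3 IP (limma adjusted p = 0.0147). It was the largest fold change of the 9 members in either direction, and it rested on 4537 reads in ADAR3 IP and 1558 in pre-immune serum IP.

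EEF1D (ENSG00000104529) encodes the other exchange subunit of the complex. Its mRNA had 542, 526, 528 and 627 CPM in ADAR3 IP, against 310.3, 309, 396 and 363 CPM in pre-immune serum IP and 429, 481, 436 and 477 CPM in input. Every ADAR3 IP library was above every input library, and every pre-immune library was below them. EEF1D was higher in ADAR3 IP by 0.61 ± 0.12 on the log2 scale (SE), a ratio of 1.53 (limma adjusted p = 0.0166).

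The calls for EEF1B2 and EEF1D were near the threshold. With variance weights per group in limma neither passed, at adjusted p = 0.0650 and 0.177, while edgeR on the recovered reads called both, at adjusted p = 0.0190 and 0.0107. Without ADAR3 IP replicate 1, 2, 3 or 4 the limma adjusted p of EEF1D was 0.0655, 0.0602, 0.0604 or 0.0700, and without replicate 2 or 3 that of EEF1B2 was 0.0602 or 0.0579.

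**Figure D2:**
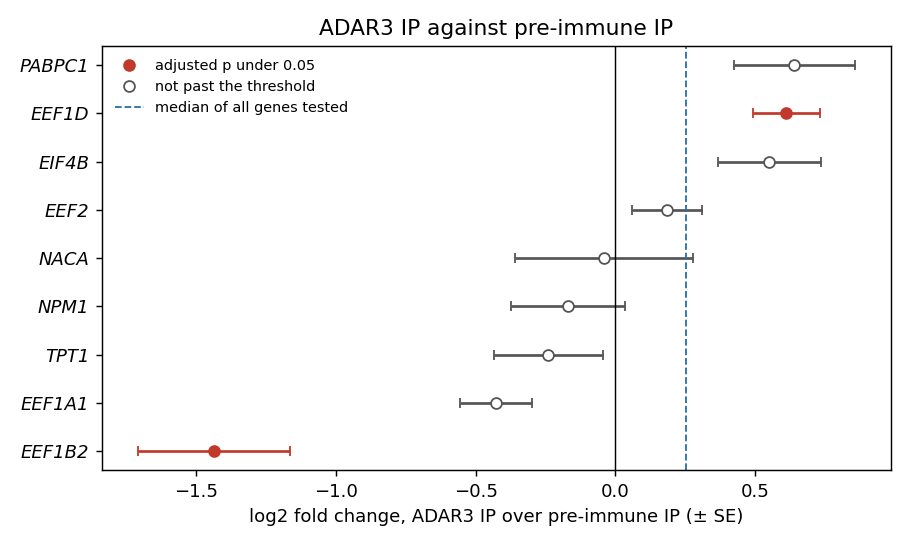
log2 fold change of ADAR3 IP over pre-immune serum IP from limma, with the standard error, for the 9 measured mRNAs. EEF1B2 at -1.44 and EEF1D at 0.61 are filled because they passed the threshold, and the dashed line at 0.25 is the median of all genes tested.

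The read ratio of 2 mRNAs within a library does not depend on how libraries are scaled, and it was computed for the exchange subunits and for the elongation GTPases. These ratios were picked after the values of the members were known and are given as a description, with no test. EEF1D reads were 12.5, 16.4, 13.6 and 12.002 times the EEF1B2 reads in ADAR3 IP, against 3.53, 2.13, 2.99 and 5.04 times in pre-immune serum IP and 2.69, 2.54, 2.94 and 2.58 times in input. The ratio in ADAR3 IP was 4.14 times that in pre-immune serum IP as a ratio of geometric means, and higher in 4 of 4 libraries. That separation was fixed by EEF1D lying above and EEF1B2 below pre-immune serum IP in every library, so it is no separate result. The pre-immune and input ranges overlapped, and every ADAR3 IP library lay above both.

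EEF2 reads were 1.77 ± 0.106 times EEF1A1 reads in ADAR3 IP, against 1.16 ± 0.101 times in serum IP and 1.06 ± 0.0252 times in input (SD, n = 4 each). Every ADAR3 IP library lay above every pre-immune library, with a ratio of 1.53 between the groups. Pre-immune IP and input overlapped here as well.

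**Figure D3:**
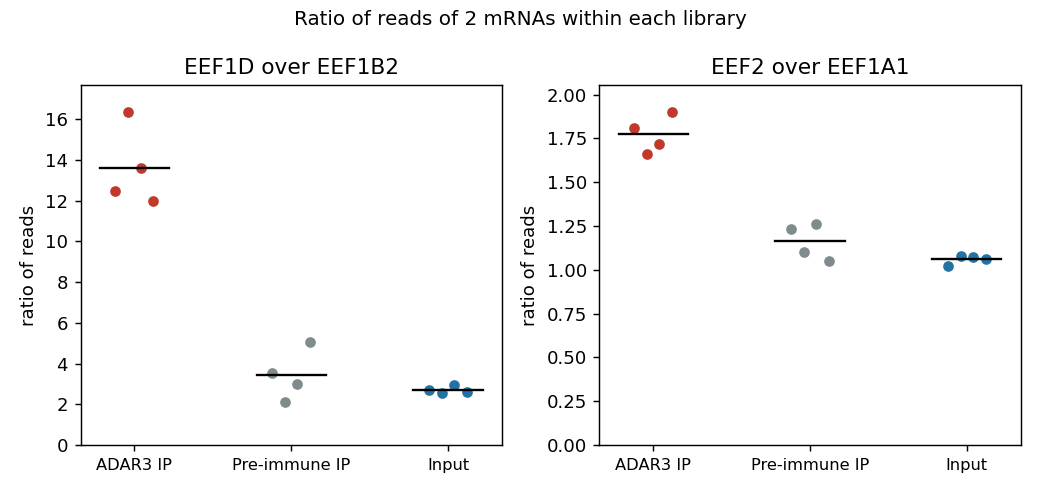
Ratio of reads of EEF1D over EEF1B2 (left) and of EEF2 over EEF1A1 (right) within each library, with 1 point per library and a black line at the group mean. ADAR3 IP stands apart at 12.002 to 16.4 on the left and 1.66 to 1.90 on the right, while pre-immune serum IP and input overlap in both panels.

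EEF1G (ENSG00000254772), the subunit that holds the exchange complex together, was listed at or near 0 in every group. It had 22 reads in ADAR3 IP, all in replicate 3, 0 in pre-immune serum IP and 7 in input. A count of 0 allows up to 0.125 CPM in the shallowest ADAR3 IP library and 1.60 CPM in the shallowest pre-immune library, which covers counting error only. EEF1G is used by dividing cells in general, so these values are given as the table lists them, with no comparison. The reason for the low count was not tested.

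Among the initiation factors, EIF4B (ENSG00000063046) stimulates the helicase that unwinds the start of an mRNA. Its mRNA had 130, 134, 132 and 128 CPM in ADAR3 IP, against 90.0, 97.3, 67.0 and 86.4 CPM in pre-immune serum IP and 141, 144, 135 and 138 CPM in input. ADAR3 IP lay fully above pre-immune serum IP and just below input, by 0.09 ± 0.02 on the log2 scale of CPM (SE). The log2 fold change of 0.55 ± 0.18 over pre-immune serum IP did not pass the threshold (limma adjusted p = 0.136). The authors' deposited table gives 0.54 with an adjusted p of 0.00981. The level of EIF4B was also the steadiest between ADAR3 IP replicates among the 9 members, with an SD of 1.78% of the mean.

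PABPC1 (ENSG00000070756) binds the poly(A) tail and links it to the initiation complex. It had 423, 482, 518 and 760 CPM in ADAR3 IP, against 376, 355.5, 235 and 344 CPM in pre-immune serum IP and 462, 448, 478 and 455 CPM in input. ADAR3 IP lay above pre-immune serum IP without overlap and overlapped input, and replicate 4 stood well above the other 3 ADAR3 IP libraries. The log2 fold change over pre-immune serum IP was 0.64 ± 0.22 (SE; limma adjusted p = 0.139), and 0.47 without ADAR3 IP replicate 4. The authors' deposited table gives 0.64 with an adjusted p of 0.0701.

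The IPs overlapped for NACA, NPM1 and TPT1, as they did in CPM for EEF2 and EEF1A1. NACA (ENSG00000196531), a subunit of the complex that shields nascent chains at the ribosome exit, had 70.4, 88.5, 91.1 and 80.1 CPM in ADAR3 IP. It had 95.6, 123, 89.3 and 38.4 CPM in pre-immune serum IP and 232, 270.3, 235 and 256 CPM in input. The pre-immune libraries spread widely, and both IPs lay far below input. The log2 fold change of ADAR3 IP over pre-immune serum IP was -0.04 ± 0.32 (SE; limma adjusted p = 0.953), and its sign turned positive with library totals or TMM factors in place of the deposited scaling.

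NPM1 (ENSG00000181163), a nucleolar chaperone of ribosome assembly, had 257, 313, 284 and 353 CPM in ADAR3 IP. It had 390, 403, 308 and 212 CPM in pre-immune serum IP and 788, 902, 782 and 866 CPM in input. The IPs overlapped fully and lay below input, and the log2 fold change between them was -0.17 ± 0.20 (SE; adjusted p = 0.676 in limma). TPT1 (ENSG00000133112), the translationally controlled tumour protein, had 283, 291, 285 and 320 CPM in ADAR3 IP, 234, 414, 291 and 413 CPM in pre-immune serum IP and 573, 669.5, 614 and 677 CPM in input. Its IPs also overlapped below input, and between them the change was -0.24 ± 0.19 on the log2 scale (SE; adjusted p = 0.533 in limma).

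Levels in the IPs were then set beside input. The authors scaled the input table apart from the IP table, so these differences in CPM are described and not tested, and the comparisons of each IP with input share the 4 input libraries. In ADAR3 IP, 7 of 9 members were below input and 1, EEF1D, was above it in every library; of 15638 genes with a mean of at least 10 reads, 25.8% lay below input and 24.7% above it in this way. Abundant genes were separated more often: among 2228 genes with at least 100 CPM in input, 45.4% lay below and 32.1% above. In pre-immune serum IP, 9 of 9 members were below input and 0 above, against 22.2% below and 4.3% above of the 15638 genes, and 34.8% below and 9.52% above of the 2228 abundant ones.

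The median log2 CPM ratio of the members over input was -1.10 in ADAR3 IP and -0.94 in pre-immune serum IP. The median of the 2228 abundant genes was -0.15 in ADAR3 IP and -0.30 in pre-immune serum IP. Their median input level was 167 CPM, and most members stood above it, up to 2616 CPM for EEF2. The members were therefore not set against genes of their own abundance. In ADAR3 IP the members ranged from -2.05 ± 0.17 (SE) for EEF1B2 to 0.28 ± 0.07 for EEF1D. In pre-immune serum IP they ranged from -1.64 ± 0.37 for NACA to -0.41 ± 0.10 for EEF1D. Without ADAR3 IP replicate 1 PABPC1 stood at 0.32 and EEF1D at 0.29 in ADAR3 IP, and without pre-immune replicate 3 PABPC1 stood at -0.36 and EEF1D at -0.48 in pre-immune serum IP.

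Values for the other members fell between these. NPM1 stood at -1.48 ± 0.11 in ADAR3 IP and -1.39 ± 0.22 in pre-immune serum IP, NACA at -1.59 ± 0.10 in ADAR3 IP, and TPT1 at -1.10 ± 0.07 and -0.94 ± 0.21 in the same order. EEF1A1 stood at -1.43 ± 0.05 in ADAR3 IP and -1.08 ± 0.12 in pre-immune serum IP, and EEF2 at -0.68 ± 0.08 and -0.95 ± 0.12. EIF4B and PABPC1 were close to input in ADAR3 IP, PABPC1 at 0.21 ± 0.18, and lower in pre-immune serum IP, at -0.73 ± 0.12 for EIF4B and -0.51 ± 0.16 for PABPC1. When the 14 genes scarce in input were left out of the totals, EEF1B2, EEF1D and PABPC1 in pre-immune serum IP overlapped input, which left 6 of 9 members below it, and EIF4B in ADAR3 IP overlapped input.

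**Figure D4:**
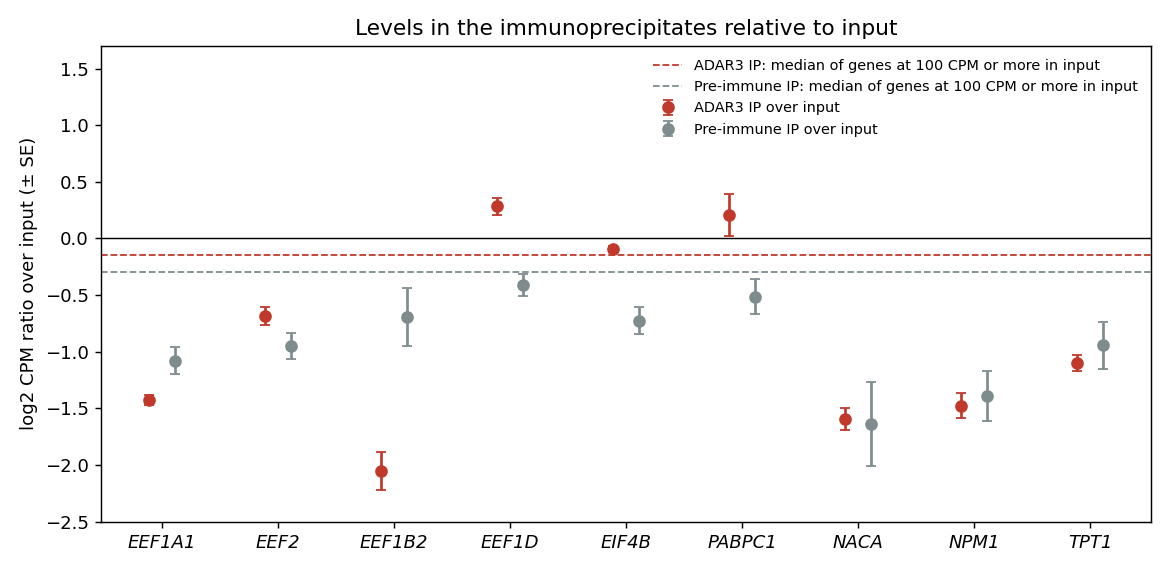
log2 ratio of CPM over input, with the standard error, for ADAR3 IP (red) and pre-immune serum IP (grey). Dashed lines mark the medians of genes with at least 100 CPM in input, at -0.15 in ADAR3 IP and -0.30 in pre-immune serum IP. EEF1D at 0.28 and PABPC1 at 0.21 in ADAR3 IP are the only points above 0.

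The members differed in how they varied over the 12 libraries. Between pairs of members, Pearson's r of log2(CPM + 1) ranged from -0.46 to 0.97 over 36 pairs, with a median of 0.63 and 4 pairs below 0. These correlations are across libraries that share their depth and composition and fall into 3 groups, and they are given as a description. Of 4560 other genes with a mean of at least 50 CPM, ENSG00000148303 (r = 0.997) and ENSG00000135624 (r = 0.991) followed the mean profile of the 9 members most closely over the 12 libraries. The first had 412 ± 57.3 CPM in ADAR3 IP, 408 ± 90.4 in pre-immune serum IP and 977 ± 89.1 in input (SD, n = 4), with the IPs nearly equal and both far below input.

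Replicates of a group also differed. ADAR3 IP replicate 4 held the highest level of its group for 7 of 9 members, and its summed share of 0.513% was the highest of the ADAR3 IP libraries. The same library held the highest level for 38.8% of the 2228 abundant genes and 28.6% of the 15638 genes. Pre-immune replicate 2 held the highest level for 6 of 9 members, against 25.3% of the abundant genes. Input replicate 2 likewise did for 6 of 9, against 24.6% of them.

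The pyrimidine runs shown above can be set beside the fold changes for the 7 members that have one. This leaves out EEF1D and PABPC1, which had no start sequence to read. Their fold changes, 0.61 and 0.64, were the highest of the 9 measured members, so the top of the range is missing here. EEF1B2, with the run of 16, had the lowest fold change over pre-immune serum IP at -1.44, and EIF4B, with the run of 5, had the highest of these 7 at 0.55. Between them stood EEF2 at 0.19, TPT1 at -0.24 and EEF1A1 at -0.43, all with runs of 7. NACA, with a run of 6, stood at -0.04 and NPM1, with a run of 8, at -0.17, so the order of the fold changes did not follow the run length throughout. Across these 7 genes, which are not independent replicates, Spearman's rho was -0.74, and -0.58 over 6 genes without EEF1B2. Against the ratio of ADAR3 IP over input rho was -0.59, and -0.33 without EEF1B2. The pairing was examined after the values were known, it takes the listed start with a tract for EEF1B2 and NPM1, and it is a description only.

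Near-identical copies limit how exactly these genes can be counted. By symbol, RefSeq lists 50 pseudogenes of EEF1A1, 50 of NPM1, 14 of TPT1, 13 of PABPC1, 9 of EIF4B, 8 each of EEF1B2, EEF1D and EEF1G, 7 of NACA and 0 of EEF2. RefSeq also places small RNA genes within some of them, SNORD37 in EEF2, SNORA41 and SNORD51 in EEF1B2, SNORA31 and SNORA31B in TPT1, MIR7705 in PABPC1 and MIR6747 in EEF1G. Reads shared with such copies or overlapping genes may be dropped or split, and the strand and multi-mapping settings of the counting have no source here. The levels above are therefore uncertain for the members with many copies.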

How the data were processed

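Titles gave the group and replicate number of the 12 libraries of U373-MG RNA. The RNA was depleted of ribosomal RNA, per the labels' protocols, and the libraries were strand-specific and amplified for 15 cycles, and inputs used 1 µg of total RNA. Per the submitters' processing notes, STAR 2.7.7a, featureCounts, DESeq2 and build GRCh38 were used, in roles not stated. The authors deposited a normalized signal per gene, counts divided by a size factor, in separate tables for IP and input. All values (100%) were whole multiples of 1 read within 0.001 reads, so reads and CPM were recovered. Log2 fold changes and p-values of the authors are in the deposited IP table and are named where used.

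The test was limma 3.58.1 (R 4.3.3) on log2(normalized count + 1), fitted on the 8 IP libraries with a variance trend. The pseudocount understates changes of low genes. The design named limma for normalized values and edgeR for raw counts. Alternatives were other pseudocounts, minimums and scalings, variance weights, edgeR 4.0.16, DESeq2 1.42.0, a replicate block and leaving out each library. The scripts were tested on simulated data. The members, lists and tests were chosen with earlier results of these data known. Named were the members and the 2 genes most like their mean profile. The 8 further gene lists, cell type markers included, are not analysed here, since 0 of 59792 RefSeq entries carry an Ensembl ID. Members were matched to RefSeq by symbol: 10 had a gene entry and 8 a start sequence. Tracts were defined by script as a C at the start followed by at least 4 pyrimidines.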

Additional observations from a re-analysis of the deposited data

Results flagged for a closer look

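EEF1D in ADAR3 IP replicate 4 stood at 627 CPM, far above the other 3 ADAR3 IP libraries, at 526 to 542 CPM. Its gap to the nearest library was 0.833 of the group's range, above Dixon's critical value for 4 samples. This was 1 of 33 sets of 4 values examined, and chance alone marks about 1 set in 20. Without that library the log2 fold change of EEF1D over pre-immune serum IP was 0.55 (limma adjusted p = 0.0700), against 0.61 with it.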

How the results depend on the processing

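Fold changes between the IPs kept their direction for all measured members but NACA under the 21 alternatives. NACA, at -0.04, became 0.042 with library totals, 0.064 with TMM factors and -0.38 to 0.18 on leaving out 1 library, where 0.04 without ADAR3 IP replicate 1, 0.05 without pre-immune replicate 1 and 0.18 without pre-immune replicate 2 were the positive values. Of 189 pairs of member and alternative, 168 kept direction and side of the threshold, 11 lost a call and 5 gained one. EEF1B2 passed in 17 of 21 alternatives (adjusted p 3.89e-06 to 0.0650), EEF1D in 14 (1.06e-06 to 0.177), EEF1A1 in 4 (0.0105 to 0.326) and EIF4B in 1 (0.00981 to 0.367). All alternatives reuse the same IP libraries, so these passes are not independent. The pass of EIF4B came with DESeq2 on the recovered reads, as did the lowest adjusted p of EEF1B2, EEF1D and EEF1A1. That alternative gave the members the same fold changes and adjusted p as the authors deposited, so it is not a separate result. The count of members called, 1 higher and 1 lower, became 0 and 0 with group variance weights or without a variance trend, 2 and 2 with DESeq2, 0 and 2 with totals that leave out the 14 genes scarce in input, and 1 and 2 at a minimum of 400. The 2 lower with totals that leave out those 14 genes were EEF1B2 and EEF1A1, the latter at -0.56 (limma adjusted p = 0.0325). Leaving out 1 library gave 0 to 1 higher and 0 to 2 lower. All genes called ranged from 74 to 1571 higher (259 in the reported fit) and from 55 to 1010 lower (193). The median log2 fold change of all genes tested was 0.25, and it was 0.09 over only the genes that pass a minimum of 400. The median of 0.25 became 0.35 with TMM factors, 0.13 without those 14 genes, 0.03 with edgeR and -0.06 with DESeq2. The causes of these shifts were not tested.

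Against input, leaving out 1 library gave 1 to 2 members above input in ADAR3 IP, the 2 being EEF1D and PABPC1 without ADAR3 IP replicate 1, and 6 rather than 7 lay below with TMM factors. The log2 fold of the read ratio of EEF1D over EEF1B2, 2.05, ranged from 1.85 to 2.26 on leaving out 1 library, and that of EEF2 over EEF1A1, 0.61, from 0.57 to 0.65 (chosen after seeing the data). A replicate block in limma left 1 member called higher and 1 lower, EEF1D at adjusted p = 0.0249 and EEF1B2 at 0.0218, and changed no call of a member. It called 263 genes higher and 140 lower in all. Same-numbered libraries deviated with correlations of -0.0016 to 0.0236 and 0 of 4 ADAR3 IP libraries correlated best with its own number, and the numbers were therefore not read as pairs. Depth limits NACA most, with 72 reads in the shallowest pre-immune library.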
